A study of Homo sapiens with 4 samples.

Results

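The 47 genes described here are interferon-stimulated and antiviral genes, together with the interferon receptors and signalling genes that drive them, chosen by symbol and followed in NCI-H1703 cells. Every one of the 47 symbols was found among the 48162 genes of the count table, each by its Ensembl identifier (DDX58 under its present name, RIGI). NCI-H1703 is an established human lung cancer cell line, and every library came from it. The vector group consisted of cells transfected with the pCDNA vector alone, and the overexpression group of cells with stable overexpression of the long noncoding RNA EGFR-AS1, a transcript from the strand opposite the EGFR gene. All cells were grown in RPMI with fetal bovine serum and selected with hygromycin, and each group had 2 libraries, lettered A and B. The labels do not say whether the cells of a group were a pool or 1 clone, nor whether its libraries came from separate cultures, so all p-values measure only the spread between these libraries, which may be technical.

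Counted reads numbered 41518275 in vector A, 32601449 in vector B, 32680467 in overexpression A and 33750041 in overexpression B. EGFR-AS1 had 59 and 37 reads in the vector libraries and 670 and 586 with overexpression (edgeR adjusted p = 5.62e-09), which goes with the labels. Of 6 epithelial markers, KRT8 and KRT18 carried nearly all reads. The summed level of the 6 was 74.2 and 89.5 CPM (read counts scaled to library size) in vector against 38.0 and 30.9 CPM with overexpression. KRT8 and KRT18 both fell (log2 fold change -1.09 and -1.28, edgeR adjusted p = 0.00628 and 1.35e-05), and KRT7 did not pass. EPCAM had 2 to 3 reads, CDH1 3 to 8 and KRT19 0 to 9 in a library, so the defining epithelial markers were close to absent. The 10 leukocyte markers summed to 7.68 to 8.07 CPM in vector and 10.0 to 10.2 CPM with overexpression, most of it ITGAM, while the pan-leukocyte gene PTPRC had 0 reads in 3 libraries and 3 reads in overexpression A. The 6 fibroblast markers summed to 5.65 to 8.99 CPM and 12.1 to 14.8 CPM. Most of these reads were of COL1A1, which was higher in both overexpression libraries and did not pass (edgeR adjusted p = 0.0595). DCN had 39 reads and COL1A2 37 in overexpression A, against 0 and at most 1 in each of the other 3 libraries. COL3A1 rose (edgeR adjusted p = 0.0256), and PDGFRB had 5 to 13 reads in a library with overlapping groups. The 5 endothelial markers summed to at most 0.393 CPM. The part of these shifts in the results below was not tested. In bulk RNA, fewer cells with a transcript and less of it in each cell cannot be told apart.

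Interferons are secreted proteins that warn cells of infection. Type I interferons bind a receptor of IFNAR1 and IFNAR2 and interferon gamma binds one of IFNGR1 and IFNGR2, and kinases of the JAK family, TYK2 among them, then phosphorylate STAT proteins. STAT2 and IRF9 act in a complex that binds interferon-stimulated response elements (ISRE) in promoters, while gamma-activated sites (GAS) serve the interferon gamma response. The genes switched on in this way encode proteins that sense, degrade or trap viral nucleic acid, block virus entry, or end the signal. Many tumour cell lines keep some of these genes on without added interferon.

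The genes that rose with EGFR-AS1 overexpression were IFITM1, SAMD9, SAMD9L, IFI44, OASL, IFIT1, IFIT3, IFNAR2 and IFI6. Of the 47 genes, 39 passed the filter on low counts; of these, 9 rose at an adjusted p under 0.05 (23.1%, against 7.80% of all 16106 genes tested), 0 fell (against 6.67% of all genes tested) and 30 did not pass. These calls are from edgeR's quasi-likelihood test with Benjamini-Hochberg adjustment over all genes tested. At an unadjusted edgeR p under 0.05, 11 of the 39 had higher and 3 lower levels, against 2330 and 1988 of all 16106 genes tested. DESeq2 and limma-voom likewise called 0 of the 39 lower. A fit with the letters A and B as a block called 2 of the 39 lower, and a fit with no filter on low counts called 1 of the 47. IFI44 and OASL passed the filter only through the overexpression libraries, where they were high, and so had to differ. The median log2 fold change of the 39 genes was 0.12, against 0.00 for all genes tested. In 17 of the 39 both overexpression libraries lay above both vector libraries (28.3% of all genes tested do), in 4 both lay below (27.2%), and in 18 the groups overlapped. The changes were uneven within families: the largest rise was in IFITM1, and its close relatives IFITM2 and IFITM3 did not pass the test.

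**Figure D1:**
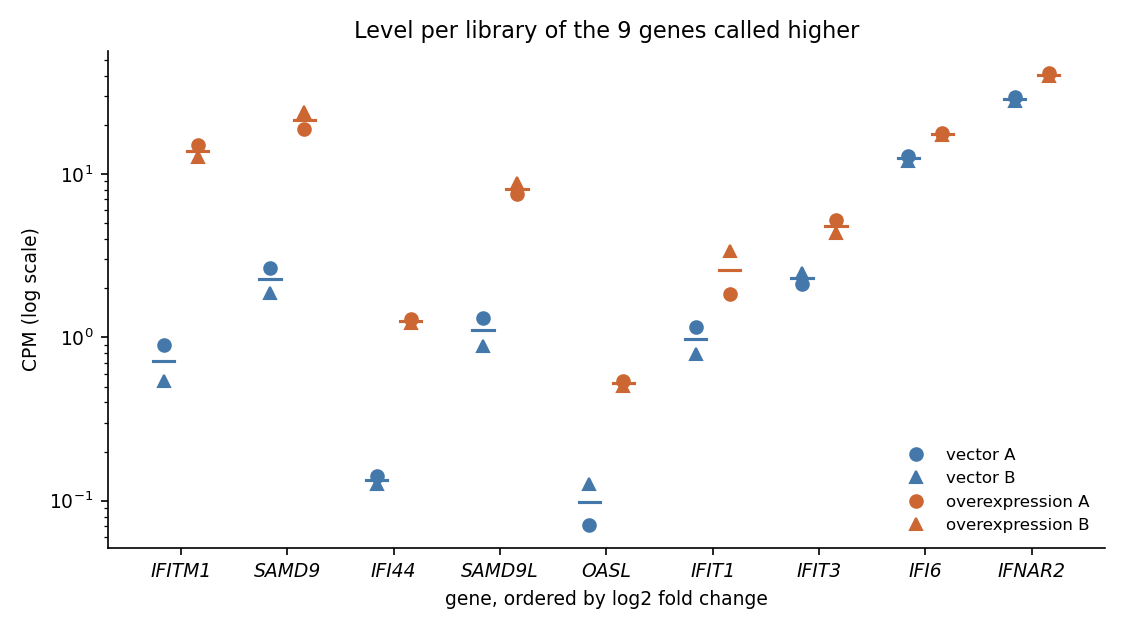
CPM (log scale) of the 9 genes that rose, with 1 point per library (blue for vector, orange for overexpression, circles for A and triangles for B) and a bar at each group mean. In all 9 both overexpression points lie above both vector points, and the gap is widest for IFITM1 and narrowest for IFI6 and IFNAR2.

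IFITM1 encodes a small membrane protein that restricts the entry of enveloped viruses and sits mainly at the cell surface. It was at 0.897 and 0.539 CPM in vector A and B (38 and 17 reads) and at 15.1 and 12.7 CPM in overexpression A and B (500 and 427 reads). Both overexpression libraries were far above both vector libraries, with the lower of the former still at many times the higher of the latter. The gene was 18.8-fold higher (log2 fold change 4.23, SE 0.26, edgeR adjusted p = 2.22e-08), and its p ranked 31 among the 16106 genes tested. IFITM3, which acts on viruses in endosomes, was at 349 and 336 CPM in vector and 361 and 335 CPM with overexpression (log2 difference 0.02, 95% interval -0.22 to 0.27, edgeR adjusted p = 0.93). IFITM2, its near copy, was at 128 and 142 CPM in vector and 130 and 109 CPM with overexpression (log2 difference -0.18, 95% interval -0.44 to 0.09, edgeR adjusted p = 0.41). For both genes the groups overlapped, and neither interval reaches the size of the IFITM1 change.

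The 3 IFITM genes are similar in sequence and lie side by side on chromosome 11, and in the GENCODE 29 annotation 32.5% of the exonic bases of IFITM1 are shared with IFITM2 on the same strand. Reads of one may therefore have been counted for another or dropped. Of the exonic bases of IFITM3, 21.3% lie opposite an unnamed gene. Within each library, there were 2.57 and 1.61 IFITM1 reads per 1000 IFITM3 reads in vector and 41.9 and 37.8 with overexpression. Per 1000 IFITM2 reads there were 7.01 and 3.79 in vector and 117 and 116 with overexpression. The share of IFITM1 in its family was thus higher in both overexpression libraries, although it stayed a small share of it. The 3 genes summed had a log2 difference of 0.01, since IFITM3 and IFITM2 held nearly all of the reads.

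SAMD9 and SAMD9L are neighbouring genes on chromosome 7 that encode large cytoplasmic proteins that restrict poxviruses and slow cell growth. SAMD9 was at 2.67 and 1.87 CPM in vector and 18.9 and 24.1 CPM with overexpression (113 and 59 reads against 627 and 811). SAMD9L was at 1.32 and 0.889 CPM in vector and 7.49 and 8.79 CPM with overexpression (56 and 28 reads against 248 and 296). For both genes the groups lay well apart, and in both genes vector A was above vector B and overexpression B above overexpression A. SAMD9 was 9.37-fold higher (log2 fold change 3.23, SE 0.22, edgeR adjusted p = 5.57e-08) and SAMD9L 7.24-fold higher (log2 fold change 2.86, SE 0.26, edgeR adjusted p = 1.71e-06). There were 496 and 475 SAMD9L reads per 1000 SAMD9 reads in vector and 396 and 365 with overexpression, so the pair rose together with SAMD9L at a lower share. The annotation has no exonic overlap for either gene, but they are paralogs, and reads common to both may have been lost to both.

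IFI44 encodes an interferon-induced protein of the cytoplasm whose action is less well defined. It had 6 and 4 reads in vector (0.142 and 0.127 CPM) and 43 and 41 reads with overexpression (1.30 and 1.22 CPM). The libraries of each group were close together and the groups far apart, but IFI44 passed the filter only through the overexpression libraries and so had to differ. The ratio of the summed reads, scaled by library size, was 9.29 with an exact 95% interval of 4.81 to 20.1 that covers counting error only (edgeR adjusted p = 0.000235). Its neighbour and paralog IFI44L had no read (0) in vector A or B and had 2 and 5 reads with overexpression, too few for a test.

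OASL encodes a relative of the 2′-5′ oligoadenylate synthetases that lacks their enzyme activity and enhances RNA sensing by RIG-I. It had 3 and 4 reads in vector (0.0708 and 0.127 CPM) and 18 and 17 reads with overexpression (0.544 and 0.505 CPM). The groups did not overlap, but the reads were few, and OASL too passed the filter only through the overexpression libraries. The ratio of the summed reads was 5.53 with an exact 95% interval of 2.42 to 14.8 (edgeR adjusted p = 0.0110). The OASL call was lost in DESeq2 (adjusted p = 0.115), without vector A (edgeR adjusted p = 0.0795), without overexpression A (0.131) and without overexpression B (0.0954).

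The IFIT proteins bind foreign RNA, IFIT1 by its unmethylated cap, and act in complexes in which IFIT3 stabilises IFIT1. IFIT1 was at 1.16 and 0.793 CPM in vector (49 and 25 reads) and at 1.84 and 3.36 CPM with overexpression (61 and 113 reads). Both overexpression libraries were above both vector libraries, but overexpression B was far above overexpression A. IFIT1 rose by 1.40 on the log2 scale (SE 0.35, edgeR adjusted p = 0.0131), and without overexpression B its difference was 0.90 and did not pass (edgeR adjusted p = 0.374). IFIT3 was at 2.12 and 2.48 CPM in vector and 5.23 and 4.37 CPM with overexpression (log2 fold change 1.06, SE 0.25, edgeR adjusted p = 0.00743). Here the 2 libraries of each group lay close together, yet without overexpression A the change did not pass (log2 fold change 0.92, edgeR adjusted p = 0.119).

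IFIT2, which promotes apoptosis and binds RNA, was at 1.60 and 1.33 CPM in vector and 2.42 and 2.73 CPM with overexpression. The groups did not overlap, and the log2 difference of 0.80 (95% interval 0.19 to 1.41) did not pass (edgeR adjusted p = 0.0751). It passed without vector A (edgeR adjusted p = 0.0257). IFIT5, a cytoplasmic RNA-binding member and the most abundant of the 4, was at 21.3 and 26.9 CPM in vector and 23.6 and 27.6 CPM with overexpression, with overlapping groups (log2 difference 0.09, 95% interval -0.25 to 0.42, edgeR adjusted p = 0.779). There were 99.9 and 91.9 IFIT3 reads per 1000 IFIT5 reads in vector and 222 and 158 with overexpression. For IFIT1 the figures were 54.4 and 29.5 in vector and 78.2 and 122 with overexpression.

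IFNAR2 and IFI6 had the smallest changes among the 9. IFNAR2, the high-affinity chain of the type I interferon receptor, was at 29.4 and 28.0 CPM in vector and 41.3 and 39.8 CPM with overexpression (log2 fold change 0.50, SE 0.13, edgeR adjusted p = 0.0184). The libraries of a group lay close together and the groups apart. In GENCODE 29, 44.2% of its exonic bases are shared with the read-through gene IFNAR2-IL10RB on the same strand and 39.1% lie opposite IL10RB-DT, so its count is uncertain. The IFNAR2 change did not pass without overexpression A (edgeR adjusted p = 0.184) or without overexpression B (0.115). IFI6, which encodes a membrane protein of the endoplasmic reticulum and mitochondria that protects cells from flavivirus replication and apoptosis, was at 12.8 and 12.1 CPM in vector and 17.9 and 17.4 CPM with overexpression. The groups did not overlap, and IFI6 rose by 0.50 on the log2 scale (SE 0.16, edgeR adjusted p = 0.0456). The IFI6 call was lost without overexpression A (edgeR adjusted p = 0.290), without overexpression B (0.234), without vector B (0.0593), with library totals in place of TMM factors (0.0603) and with no filter on low counts (0.0602).

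The promoters of these genes were read for the letters of the interferon response elements, because interferon is known to act on many of them through an ISRE near the start. The stretches below run from 200 bases before to 30 bases after the annotated transcription start, 5′ to 3′ on the gene's own strand, from RefSeq on GRCh38.p14. Capitals mark matches to the ISRE letters, which are GAAA, any 2 bases and GAAA again, on either strand (TTTC, any 2 bases and TTTC where the motif lies on the other strand). The first 4 belong to genes that rose most, and ISG15 and IFITM3 are shown as interferon-stimulated genes that did not pass the test.
IFITM1 (chr11:313840-314069, plus strand): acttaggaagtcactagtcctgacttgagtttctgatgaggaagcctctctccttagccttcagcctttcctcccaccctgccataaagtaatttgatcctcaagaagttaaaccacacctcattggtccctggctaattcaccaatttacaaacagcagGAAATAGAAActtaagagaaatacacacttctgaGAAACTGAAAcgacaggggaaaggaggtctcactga
SAMD9 (chr7:93117950-93118179, minus strand): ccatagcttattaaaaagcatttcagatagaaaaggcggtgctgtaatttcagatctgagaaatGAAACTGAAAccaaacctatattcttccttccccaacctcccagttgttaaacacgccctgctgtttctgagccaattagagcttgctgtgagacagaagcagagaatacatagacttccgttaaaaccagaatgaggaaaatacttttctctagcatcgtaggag
SAMD9L (chr7:93148356-93148585, minus strand): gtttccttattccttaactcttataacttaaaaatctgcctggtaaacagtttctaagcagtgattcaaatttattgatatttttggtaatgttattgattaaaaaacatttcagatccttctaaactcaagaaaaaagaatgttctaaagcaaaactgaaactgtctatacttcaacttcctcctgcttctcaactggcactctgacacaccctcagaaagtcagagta
IFI44 (chr1:78649589-78649818, plus strand): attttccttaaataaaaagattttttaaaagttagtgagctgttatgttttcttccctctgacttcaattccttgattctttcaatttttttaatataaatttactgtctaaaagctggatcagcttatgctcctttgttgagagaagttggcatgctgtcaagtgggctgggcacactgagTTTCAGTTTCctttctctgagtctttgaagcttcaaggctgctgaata
ISG15 (chr1:1013297-1013526, plus strand): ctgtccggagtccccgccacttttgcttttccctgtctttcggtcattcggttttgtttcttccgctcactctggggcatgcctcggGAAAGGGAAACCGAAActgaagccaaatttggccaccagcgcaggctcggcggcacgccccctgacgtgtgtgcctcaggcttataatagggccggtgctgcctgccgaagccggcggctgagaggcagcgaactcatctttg
IFITM3 (chr11:320831-321060, minus strand): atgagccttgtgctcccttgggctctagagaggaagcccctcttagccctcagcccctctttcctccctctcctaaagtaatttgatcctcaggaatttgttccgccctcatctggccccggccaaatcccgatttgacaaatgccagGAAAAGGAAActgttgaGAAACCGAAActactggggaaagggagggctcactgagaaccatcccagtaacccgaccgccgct

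IFITM1 has a match that starts 40 bases and another that starts 6 bases before its transcription start. IFITM3 has matches at 52 and 35 bases, in a stretch much like that of IFITM1. SAMD9 has a match at 136 bases, IFI44 has one at 18 bases on the other strand (in the first of its 2 annotated start sites), and ISG15 has 2 overlapping matches at 113 and 107 bases. SAMD9L has no match to these letters in this window. The match nearest the start of IFITM1 and the match of SAMD9 both read GAAACTGAAA, and IFITM3 and ISG15 each hold GAAACCGAAA.

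A promoter window of 250 bases before to 50 after a start was found for 38 of the 47 genes, some with more than 1 window. An ISRE match on either strand was present in 24 of the 38 (63.2%), against 4.38% of 27305 genes with a window and 3.83% of the 11140 genes tested that had one. Among the genes that rose, 6 of 7 with a window had a match (IFITM1, SAMD9, IFI44, IFIT1, IFIT3 and IFI6, but not SAMD9L). Among those that did not pass, 14 of 27 had one, and so had 4 of 4 that were too low to test. A match was thus present both in genes that rose and in genes that did not pass. The GAS letters TTCNNNGAA, whose reverse strand reads the same and which can overlap an ISRE match, were present in 11 of the 38 genes (28.9%) and in 1 of the 7 that rose, against 9.38% of all genes with a window. IFIT2, IFITM2, IFNAR2, IRF7, MX2, OAS2, OASL, TRIM22 and USP18 had no entry. A match is a run of letters and not a measured binding site.

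Of the receptors and signal carriers, IFNAR2 alone passed among 8 tested genes (12.5% higher, against 7.80% of all genes tested). IFNAR1, the partner chain, was at 49.8 and 54.5 CPM in vector and 55.4 and 62.4 CPM with overexpression (log2 difference 0.18, 95% interval -0.09 to 0.44, edgeR adjusted p = 0.41). IFNGR1, the ligand-binding chain for interferon gamma, was at 44.3 and 40.6 CPM and 45.4 and 49.6 CPM (log2 difference 0.16, edgeR adjusted p = 0.466). For both genes the overexpression libraries lay above the vector libraries by less than the test could call. IFNGR2, the signalling chain of that receptor, ranged from 104 to 131 CPM over the 4 libraries with overlapping groups (log2 difference -0.09, edgeR adjusted p = 0.716). The kinase gene TYK2 was at 144 and 117 CPM in vector and 132 and 119 CPM with overexpression, also overlapping (log2 difference -0.06, edgeR adjusted p = 0.829).

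STAT2, the STAT that joins IRF9 in the type I response, was at 27.8 CPM in vector A but 14.9 CPM in vector B, and at 29.4 and 33.8 CPM with overexpression. Vector A lay next to the overexpression libraries and vector B far below them. The log2 difference of 0.56 (SE 0.21, 95% interval 0.10 to 1.01) did not pass (edgeR adjusted p = 0.0979), and without vector A it was 1.08 and passed (edgeR adjusted p = 3.31e-08). It also passed with no filter on low counts (edgeR adjusted p = 0.00944). The STAT2 log2 difference was only 0.18 without vector B, 0.65 without overexpression A and 0.45 without overexpression B. IRF9, the DNA-binding partner, was low, at 1.34 and 0.825 CPM in vector and 0.906 and 0.683 CPM with overexpression (log2 difference -0.47, edgeR adjusted p = 0.482), and 48.4% of its exonic bases are shared with an unnamed gene on the same strand. IRF1, a transcription factor of the interferon gamma response, was at 28.1 and 29.5 CPM and 33.2 and 31.7 CPM (log2 difference 0.17, edgeR adjusted p = 0.463). Of its exonic bases, 22.0% lie opposite other genes, IRF1-AS1 among them. IRF7, which amplifies type I interferon production, had 5 to 8 reads in a library and was not tested.

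The sensors of viral RNA stayed within the spread of the libraries. DDX58, which encodes RIG-I, a sensor of short double-stranded RNA ends, was at 8.82 and 10.3 CPM in vector and 8.22 and 9.21 CPM with overexpression (log2 difference -0.13, 95% interval -0.53 to 0.26, edgeR adjusted p = 0.704). IFIH1, which encodes MDA5, a sensor of long double-stranded RNA, was at 12.2 and 10.2 CPM and 11.4 and 11.8 CPM (log2 difference 0.05, 95% interval -0.32 to 0.43, edgeR adjusted p = 0.89). DDX60, which encodes another helicase, ranged from 13.6 to 15.2 CPM over the 4 libraries (log2 difference -0.01, edgeR adjusted p = 0.99). For all 3 the groups overlapped, and the intervals of DDX58 and IFIH1 exclude a change of 1 on the log2 scale in either direction.

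ISG15, a ubiquitin-like protein that is attached to other proteins and is among the most often used interferon reporters, was at 8.71 and 9.33 CPM in vector and 9.63 and 8.85 CPM with overexpression. The groups overlapped (log2 difference 0.04, 95% interval -0.35 to 0.42, edgeR adjusted p = 0.927). The genes of its main ligase HERC5 and of the related HERC6 had log2 differences of 0.08 and 0.04, with overlapping groups. USP18, which removes ISG15 and blocks the type I receptor, was at 5.95 and 5.90 CPM in vector and 4.44 and 4.57 CPM with overexpression. It was lower in both overexpression libraries, but its log2 difference of -0.39 (SE 0.21) did not pass (edgeR adjusted p = 0.249).

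The oligoadenylate synthetases make the second messenger that activates RNase L, and apart from OASL none passed. OAS3, by far the most abundant of them, was at 104 and 116 CPM in vector and 90.8 and 90.3 CPM with overexpression. Both overexpression libraries were lower, by a log2 difference of -0.28 (95% interval -0.53 to -0.03) that did not pass (edgeR adjusted p = 0.132) and that passed without vector A (0.0350). OAS1 was at 0.944 and 0.190 CPM in vector and 0.574 and 1.13 CPM with overexpression, a spread within each group that exceeded the difference between them (log2 difference 0.52, SE 0.55, edgeR adjusted p = 0.60). Without vector A its log2 difference was 2.14 and passed (edgeR adjusted p = 0.0121), and OAS2 had 3 to 10 reads in a library. ISG20, an exonuclease that degrades viral RNA, was at 7.36 and 3.78 CPM in vector and 4.62 and 3.92 CPM with overexpression (log2 difference -0.39, edgeR adjusted p = 0.40), and without vector B it passed at -0.79 (edgeR adjusted p = 0.00298).

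MX1, a dynamin-like GTPase that traps viral nucleocapsids, was at 1.46 and 1.36 CPM in vector and 1.81 and 2.08 CPM with overexpression (log2 difference 0.46, 95% interval -0.18 to 1.09, edgeR adjusted p = 0.362), with the groups apart but close. CMPK2, a mitochondrial nucleotide kinase, was at 1.01 and 0.603 CPM in vector and 0.242 and 0.445 CPM with overexpression. Both overexpression libraries were lower, with the lowest log2 difference of the 39 genes, -1.25 (SE 0.47, 95% interval -2.25 to -0.24), which did not pass (edgeR adjusted p = 0.0955). It passed without vector B (edgeR adjusted p = 0.0240). RSAD2, which encodes the antiviral enzyme viperin and lies beside CMPK2 in the genome, had 0 to 3 reads in a library. MX2 had 1 read in all, and BST2, which encodes the virion tether tetherin, 1 to 7 reads in a library, where 3 reads correspond to 0.0708 to 0.0952 CPM.

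PARP9 and PARP14, of the ADP-ribosyltransferase family, and DTX3L, the ubiquitin ligase that pairs with PARP9, lie together on chromosome 3. Their log2 differences were 0.12, -0.06 and 0.17, and none passed (edgeR adjusted p of 0.692, 0.794 and 0.404). TRIM21, a cytosolic antibody receptor and ubiquitin ligase, was at 20.8 and 22.5 CPM in vector and 15.2 and 17.5 CPM with overexpression. It was lower in both overexpression libraries (log2 difference -0.40, SE 0.16), did not pass (edgeR adjusted p = 0.102) and passed without vector A (0.0369). TRIM22 had 3 to 13 reads in a library and EPSTI1 1 read in all.

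Of the IFI genes that did not pass, IFI35, which binds NMI, was at 73.2 and 71.1 CPM in vector and 77.4 and 80.8 CPM with overexpression (log2 difference 0.13, edgeR adjusted p = 0.509). IFI27, a mitochondrial protein gene often used as a blood marker of viral infection, ranged from 1.17 to 1.82 CPM (log2 difference 0.08, edgeR adjusted p = 0.906). XAF1, a partner of the apoptosis inhibitor XIAP, was at 11.4 and 5.01 CPM in vector and 9.97 and 9.44 CPM with overexpression, with vector B far below the other 3 libraries. Its log2 difference of 0.23 did not pass (edgeR adjusted p = 0.643), and without vector A it was 0.95 and passed (0.000196).

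**Figure D2:**
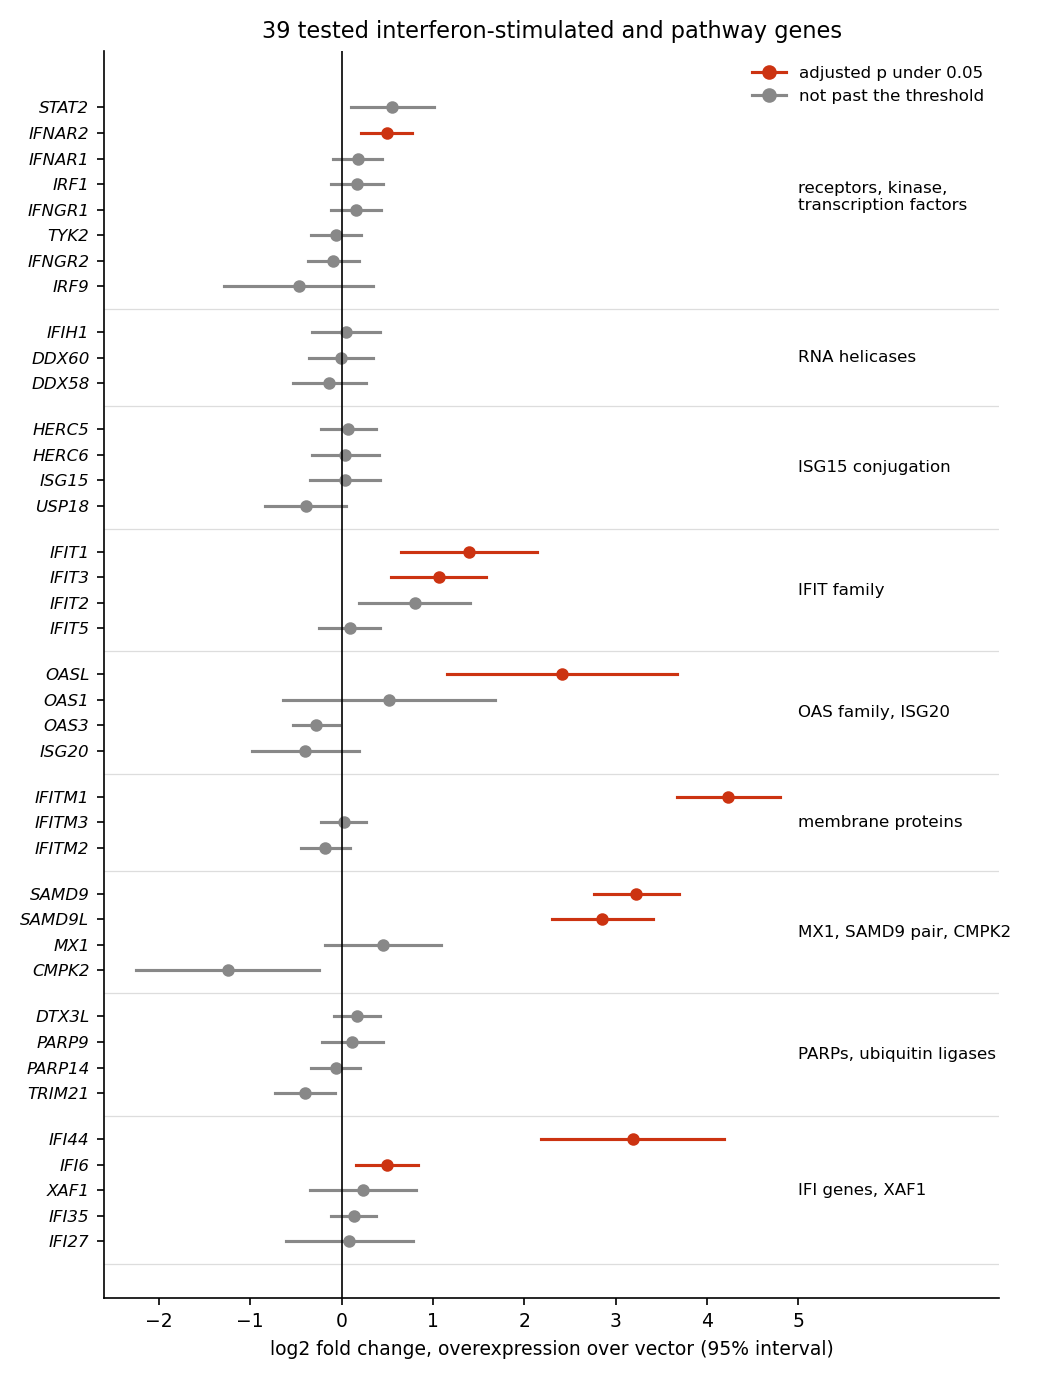
Log2 fold change, overexpression over vector, of the 39 tested genes with 95% intervals from the edgeR fit, grouped by role and ordered by size within a role. The 9 genes past the threshold (red) lie in 6 of the 9 roles. The sensors, the ISG15 system and the PARP and ubiquitin ligase genes hold none. These roles have only 3, 4 and 4 tested genes, and 7.80% of all genes tested rose.

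Several of these genes lie in family clusters, and neighbours in a cluster had different values. In the IFITM cluster on chromosome 11, IFITM1 lies between IFITM2 and IFITM3 and alone rose. In the IFIT cluster on chromosome 10 the order was IFIT2, IFIT3, IFIT1 and IFIT5, with log2 differences of 0.80, 1.06, 1.40 and 0.09. In the receptor cluster on chromosome 21, IFNAR2 rose by 0.50 and IFNAR1 and IFNGR2 had differences of 0.18 and -0.09. Both genes of the SAMD9 pair rose.

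**Figure D3:**
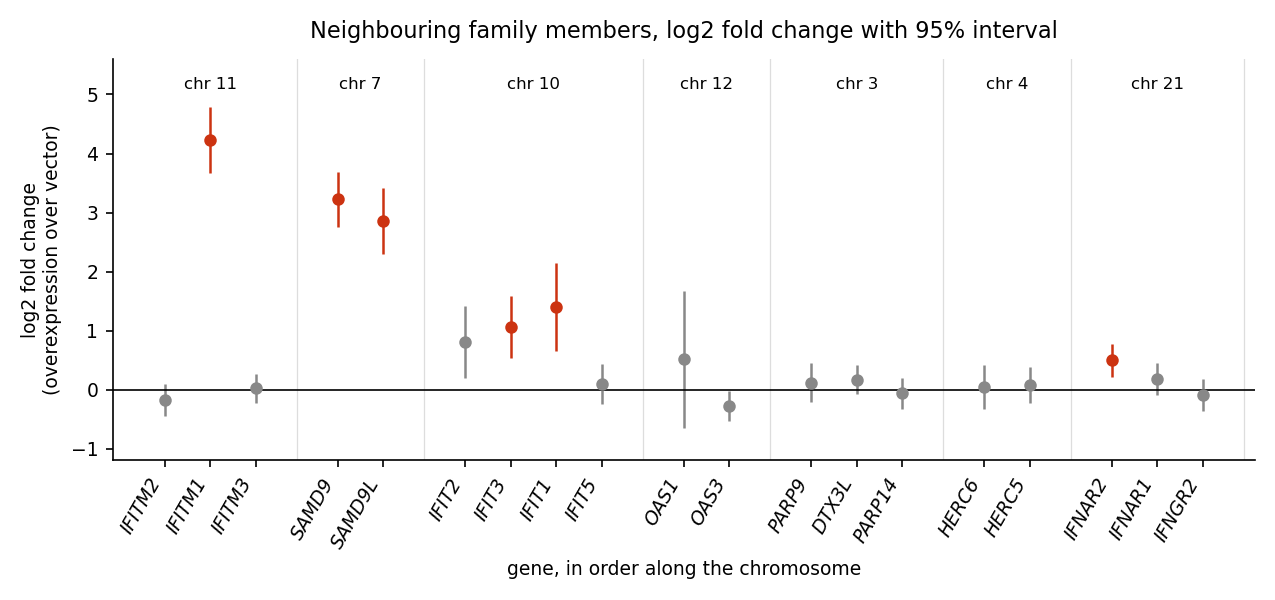
Log2 fold change with 95% interval of tested genes that lie together on a chromosome, in genome order within each cluster (red, adjusted p under 0.05). IFITM1 stands at 4.23 between IFITM2 at -0.18 and IFITM3 at 0.02, while SAMD9 and SAMD9L stand together at 3.23 and 2.86.

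The coding genes beside the 9 that rose were also read, with the 3 nearest tested ones on each side by GENCODE 29 order. They comprised 36 different genes outside the 47, of which 10 rose (27.8%, against 7.80% of all genes tested), 2 fell (5.56%, against 6.67%) and 24 did not pass. Beside IFI44, TTLL7, a tubulin glutamylase gene, rose with a log2 fold change of 2.46 (edgeR adjusted p = 2.32e-07), and NEXN, an actin-binding protein gene, and DNAJB4, a co-chaperone gene, rose by 1.05 and 0.55. ADGRL4, an adhesion receptor gene counted among the 10, rose from a mean of 0.0118 to 0.509 CPM. It passed the filter only through the overexpression libraries, where it was high, and so had to differ. FUBP1 and ADGRL2 in the same stretch did not pass. Beside IFITM1 the desmosome gene PKP3 rose by 1.62 (edgeR adjusted p = 0.000833), and PSMD13, PGGHG and B4GALNT4 did not pass.

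Beside the SAMD9 pair, the cell-cycle kinase gene CDK6 fell by 0.50 on the log2 scale (edgeR adjusted p = 0.0133) and the G protein subunit gene GNG11 rose by 0.97 (0.00639), while VPS50 and TFPI2 on the side of SAMD9L did not pass. Beside the IFIT genes, the death receptor gene FAS rose by 0.81 and the lysosomal lipase gene LIPA by 0.51, and PANK1 and KIF20B did not pass. Beside IFI6, the receptor gene GPR3 fell by 1.08 on the log2 scale (edgeR adjusted p = 0.0069) and the vesicle fusion gene STX12 rose by 0.51 (0.0282), and beside IFNAR2 the transcription factor gene OLIG2 rose by 2.13 (0.00021). None of the 6 neighbours of OASL passed. The neighbours of a gene that rose thus included genes with a rise, a fall and no call.

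The 2 vector libraries differed from each other in a number of these genes. Vector A was at least 0.5 above vector B on the log2 scale in 11 of the 39 tested genes (28.2%), against 13.5% of all genes tested, and vector B above vector A in 1, OASL. The largest such differences were 2.31 in OAS1, 1.18 in XAF1, 0.96 in ISG20 and 0.89 in STAT2, and IFITM1, SAMD9, SAMD9L and IFIT1 were also in the list with 0.73, 0.51, 0.57 and 0.54. Between the overexpression libraries, A was at least 0.5 above B in 0 of the 39, against 7.44% of all genes tested, and B above A in 3 (IFIT1, OAS1 and CMPK2, 7.69% against 3.2%). In IFITM1, SAMD9 and SAMD9L the group difference was several times larger than the difference within either group, while in OAS1, XAF1 and ISG20 it was smaller than the difference between the vector libraries.

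**Figure D4:**
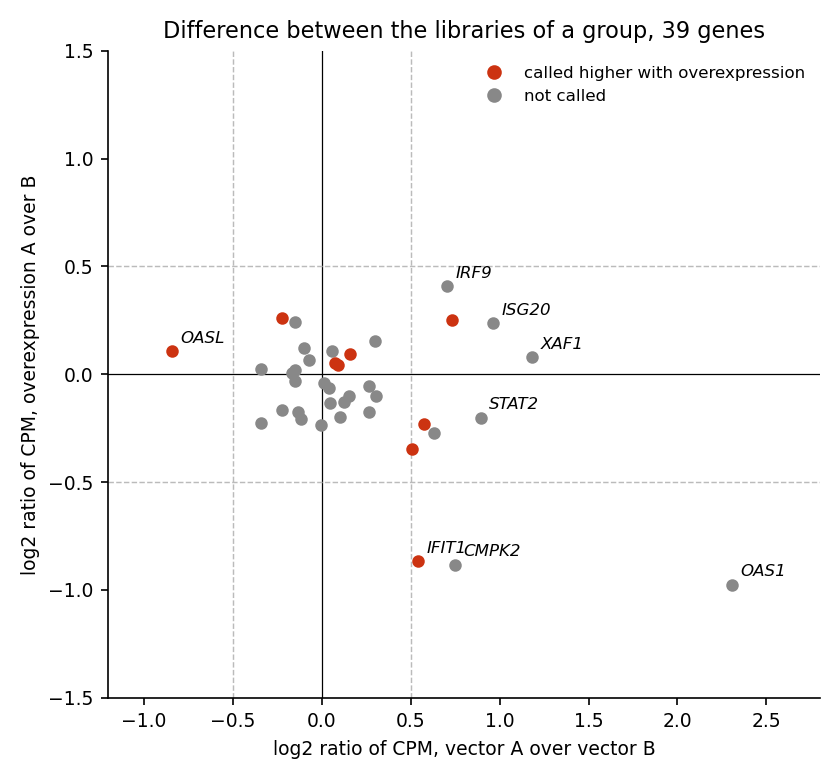
Log2 ratio of library A over B within the vector group (horizontal axis) and within the overexpression group (vertical axis) for the 39 tested genes, with dashed lines at 0.5 on either side of 0. Red points are genes that rose with overexpression. Most points lie near the centre, and 11 lie to the right of the right-hand dashed line, with OAS1 the farthest at 2.31.

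The levels themselves spanned a wide range. Per kilobase of merged exon, IFITM3 was the most abundant of the 47 in vector, with a mean of 254 CPM per kb, followed by IFITM2 at 87.5, IFNGR2 at 39.7, IFI35 at 36.6 and TYK2 at 19.2 CPM per kb. IFI6 was at 14.4 and OAS3 at 13.4 CPM per kb. The genes with the largest rises were low in vector, with IFITM1 at 0.665, SAMD9 at 0.331, SAMD9L at 0.155, IFI44 at 0.0659 and OASL at 0.0281 CPM per kb. With overexpression IFITM1 reached 12.9 CPM per kb and SAMD9 3.14 CPM per kb, still far below IFITM3 at 258 CPM per kb. The summed level of the 47 genes was 1417 and 1405 CPM in vector and 1477 and 1463 CPM with overexpression, and IFITM3 alone held 22.9% to 24.7% of their reads in a library.

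The interferon genes themselves were nearly silent. Of 21 ligand genes found in the table, 19 had no read in any library. IFNE, an epithelial type I interferon gene, had 9 and 17 reads in vector and 14 and 22 with overexpression, with overlapping groups (log2 difference 0.57, edgeR adjusted p = 0.531). IFNG had 0 reads in 3 libraries and 4 reads in overexpression A. Zero reads allow up to 3 reads in a library, or 0.0708 to 0.0952 CPM.

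Of 15 tested genes of nucleic acid sensing outside the 47, STING1 rose, TRIM25 fell and 13 did not pass. The shares, 6.67% higher and 6.67% lower, were near those of all genes tested (7.80% and 6.67%). The median log2 difference of the 15 was 0.18. STING1, the adaptor of cytosolic DNA sensing, was at 4.77 and 3.90 CPM in vector and 11.0 and 7.93 CPM with overexpression. The groups did not overlap, and STING1 rose by 1.12 on the log2 scale (SE 0.22, edgeR adjusted p = 0.00243), a change that did not pass without overexpression A (0.0675). TRIM25, a ubiquitin ligase that activates RIG-I, was at 273 and 261 CPM in vector and 188 and 193 CPM with overexpression (log2 fold change -0.49, SE 0.12, edgeR adjusted p = 0.00905), and it did not pass without overexpression A (0.176) or B (0.125). CGAS, the DNA sensor upstream of STING1, was higher in both overexpression libraries by 0.30 and did not pass (edgeR adjusted p = 0.10). The adaptor MAVS, the kinase TBK1 and the transcription factor IRF3 did not pass either, with log2 differences of -0.06, 0.10 and 0.23.

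Of 11 tested genes of interferon signalling and its brakes, SOCS3 rose, PTPN2 fell and 9 did not pass. The shares, 9.09% higher and 9.09% lower, were near those of all genes tested (7.80% and 6.67%). The median log2 difference of the 11 was 0.01. SOCS3, a feedback inhibitor of JAK kinases, was at 47.2 and 39.9 CPM in vector and 63.4 and 61.5 CPM with overexpression (log2 fold change 0.52, edgeR adjusted p = 0.0115). PTPN2, a phosphatase of JAK and STAT proteins, was at 41.1 and 46.0 CPM and 30.6 and 32.1 CPM (log2 fold change -0.47, edgeR adjusted p = 0.0244). In both genes the groups lay apart, and both calls were lost when either overexpression library was left out (edgeR adjusted p of 0.102 and 0.0601 for SOCS3, 0.201 and 0.128 for PTPN2), PTPN2 also without vector B (0.0646).

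Among 45 tested interferon-stimulated genes outside the 47, 6 rose (13.3%, against 7.80% of all genes tested), 5 fell (11.1%, against 6.67%) and 34 did not pass, and the median log2 difference was 0.05. The GTPase gene GBP1, a defence factor against intracellular pathogens, was at 0.401 and 0.793 CPM in vector and 3.96 and 4.69 CPM with overexpression (log2 fold change 2.89, SE 0.34, edgeR adjusted p = 2.39e-05). TRIM38, a ubiquitin ligase that tunes innate signalling, rose by 1.64 (edgeR adjusted p = 0.000281), and SLFN11, a restriction factor known for sensitising tumour cells to DNA damage, rose by 0.95 (edgeR adjusted p = 0.000395). LY6E, a surface protein that restricts coronaviruses, fell by 0.71 on the log2 scale from 283 and 267 CPM in vector to 177 and 160 CPM (edgeR adjusted p = 0.000694). LAMP3 fell by 0.73 and WARS1, the tryptophan tRNA synthetase gene induced by interferon gamma, fell by 0.56 (edgeR adjusted p of 0.0028 and 0.00524), the latter not without overexpression A (0.152). APOBEC3B, GBP3 and RNF213 also rose, nearer the threshold (edgeR adjusted p of 0.0367, 0.0395 and 0.0497). SLFN5 and APOL1 also fell (edgeR adjusted p of 0.0129 and 0.0340), and CXCL10, GBP2, GBP5 and RTP4 had no reads.

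**Figure D5:**
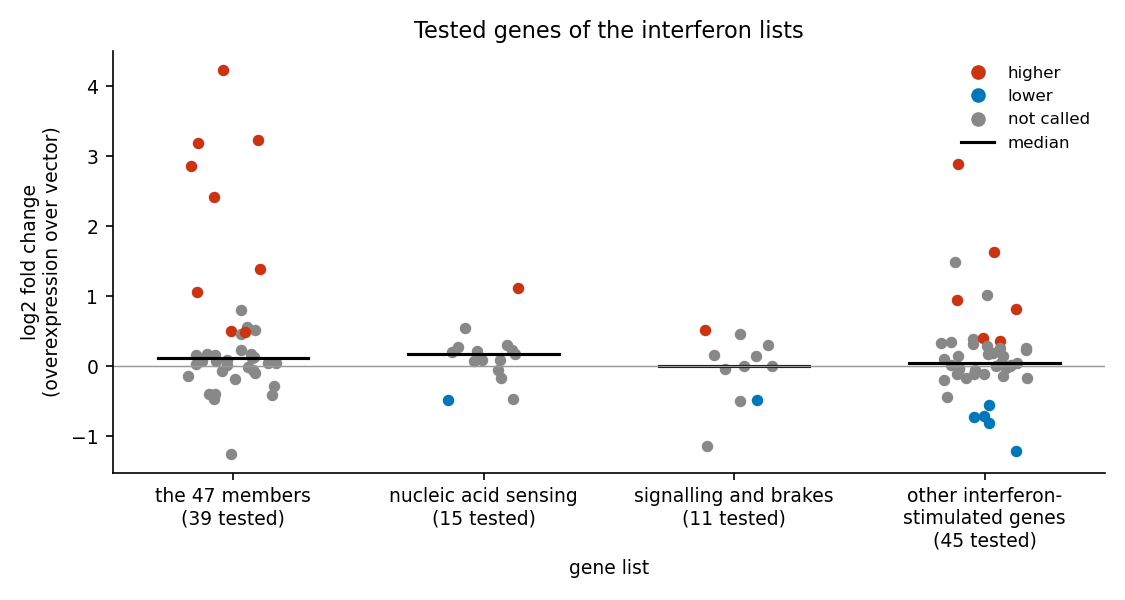
Log2 fold change, overexpression over vector, of each tested gene (points) in the 47 genes and in the lists of nucleic acid sensing, of interferon signalling and its brakes, and of other interferon-stimulated genes, with red for higher, blue for lower and a bar at each median. The medians are 0.12, 0.18, 0.01 and 0.05, and the points far above 1 in the first group are IFITM1, SAMD9, IFI44, SAMD9L and OASL.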

How the data were processed

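Messenger RNA of NCI-H1703 cells was sequenced in 4 strand-specific libraries, per the labels' protocols, and the submitters' processing notes name STAR, HTSeq, DESeq2 and the build hg19. The authors deposited raw read counts per Ensembl gene, not normalized, 1 column per library. Neither the annotation nor the strand option used for counting is given in the sources used here, so reads of overlapping or opposite-strand genes may not be told apart. No column was left out.

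The 47 genes and the other lists were chosen with earlier results of these data known, so their counts are descriptions. Counts were tested with edgeR 4.0.16 in R 4.3.3 (quasi-likelihood F-test, TMM factors, filterByExpr with a minimum count of 10, group as the only term, all 4 libraries). Benjamini-Hochberg adjustment ran over the 16106 genes tested, and genes were called at an adjusted p under 0.05. Of 48162 genes, 22236 had no read. CPM used TMM-adjusted totals. The SE is the log2 fold change over the root of F, and 95% intervals use the fit's t quantile. Where a group held 10 reads or fewer, the ratio of summed reads is given with an exact Clopper-Pearson interval for counting error only.

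A symbol was found for 33626 identifiers. Exon lengths, gene order and overlaps came from GENCODE 29 (GRCh38), which held 45342 of them, and promoters from RefSeq (GRCh38.p14). No coordinate from the authors' build is printed. Every gene of the 47 was accounted for. Of the other lists, the up to 6 called genes with the smallest p were to be described, and those mentioned beyond these were chosen after their values were seen. The fit was tested on simulated data. The alternatives were DESeq2 1.42.0, limma-voom (limma 3.58.1), RLE factors, library totals, no filter, a filter of 1 CPM in 2 libraries, glmTreat at a fold change of 1.2, the letters as a block, and each library left out.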

Additional observations from a re-analysis of the deposited data

How the results depend on the processing

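Of the 9 genes that rose, SAMD9, SAMD9L and IFITM1 passed under every alternative that fitted each gene by itself. The sum of the 3 IFITM genes did not pass. IFI44 also passed throughout, but it entered the test only through the libraries where it was high. The count of the 47 genes called higher was 7 to 10 under the other tools, scalings, filters and the replicate block, and 5 to 12 with 1 library left out, lowest without overexpression B. The share of all genes tested that were called higher moved as well, from 7.80% to 4.05% without overexpression A, 4.66% without overexpression B, 11.7% with the replicate block and 12.0% without vector A. The count called lower was 1 with no filter on low counts (CMPK2), 2 with the replicate block (OAS3 and TRIM21), and 0 to 2 with 1 library left out. The letters A and B do not pair the libraries by any label, and same-letter deviations correlated at 0.169 over genes; the replicate block called 10 of the 47 higher, with STAT2 added. With the replicate block, 2 sensing genes and 2 signalling genes were called higher. With a test against a 1.2-fold change, 7 of the 47 genes were called higher (IFI6 and IFNAR2 lost), and 4.97% of all genes tested were. That test called 0 sensing genes lower, 0 signalling genes higher, 0 signalling genes lower, and 3 of the other interferon-stimulated genes higher. With 1 library left out, the counts were 0 to 3 sensing genes higher and 0 to 1 lower, 0 to 2 signalling genes higher and 0 to 2 lower, and 3 to 9 other interferon-stimulated genes higher and 3 to 6 lower. The share of all genes tested that were called lower was not worked out for the alternatives, so counts called lower stand without it. The causes of these shifts were not tested.

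No gene of the 47 that passed in the full fit changed direction under any alternative run. Genes near 0 did. DDX60 turned to 0.0094 on the log2 scale with library totals. The 3 IFITM genes summed stood at 0.0092, which is a value of the sum, and IFITM2 by itself stayed below 0 throughout. With 1 library left out, the log2 difference ran from -0.0343 to 0.0947 for ISG15, -0.79 to 0.17 for ISG20, -0.0783 to 0.27 for IFIT5, -0.18 to 0.44 for IFI27, -0.0389 to 0.0729 for IFITM3 and -0.15 to 2.14 for OAS1. It ran from -0.0728 to 0.19 for IFIH1, -0.0014 to 0.15 for HERC5, -0.0356 to 0.12 for HERC6, -0.23 to 0.95 for XAF1, -0.0248 to 0.27 for PARP9, -0.19 to 0.0398 for PARP14, -0.0788 to 0.0714 for DDX60, -0.25 to 0.0889 for IFNGR2 and -0.20 to 0.0978 for TYK2. Depth limits the 8 untested genes, which had at most 13 reads in a library.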
